A study of Mus musculus with 9 samples.

Results

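The genes of heat shock proteins, their chaperone partners and the cytosolic chaperonin were described in RNA-seq of young and old mouse brains. A gene counted as a member where it was annotated as protein-coding and its symbol began with Hspa, Hspb, Dnaja, Dnajb or Dnajc and a number, began with Hsp90, or was Hspd1, Hspe1, Hsph1, Cryab, Tcp1, one of Bag1 to Bag6 or one of the Cct genes from Cct2 to Cct8. The rule uses no measured value. It found 88 members among the 49315 gene rows of the count table, 21811 of them protein-coding. By family, 13 members belonged to HSP70, 1 to HSP110, 3 to HSP90, 9 to the small heat shock proteins, 2 to the mitochondrial chaperonin, 4 to DNAJA, 13 to DNAJB, 28 to DNAJC, 6 to BAG and 9 to the cytosolic chaperonin CCT.

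The study asked, beside its measurements of proteins and their modifications, how far transcripts changed between young and old brains. PolyA-selected RNA of the whole brain came from 5 young (3 months by the labels, 3 or 4 by the study's methods) and 4 old (33 months) mice. All were wild-type (WT) C57BL/6J males with free access to food, and no group received a treatment. Each library was 1 mouse, named here by its label as young replicates 1 to 5 and old replicates 1, 3, 4 and 5, in which order values are listed. Whole tissue mixes all brain cell types, so fewer cells of a type and less RNA per cell cannot be told apart.

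Between 14229259 and 21150439 reads were counted per library. Levels are given as CPM, the reads counted on a gene after all libraries were scaled to the same size with TMM. All 8 neuron markers examined were tested, with a summed level of 5302 to 5758 CPM in young and 5278 to 5780.4 CPM in old mice, whereas none of 4 liver markers passed the filter on low counts (at most 1.17 CPM in sum). Young replicate 4 stood apart from the other young mice: its microglia markers reached 137% of the young mean in sum, against 87.6 to 93.6% in the others, and its chaperones of the endoplasmic reticulum (ER) reached 118% against 89.1 to 99.4%.

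Chaperones bind unfolded or aggregated proteins and help them to fold, refold or be degraded. HSP70 proteins do so in cycles of ATP binding and hydrolysis, in which J-domain proteins (DNAJ) deliver the client and stimulate hydrolysis, and nucleotide exchange factors of the HSP110 and BAG families release ADP and the client. HSP90 takes over clients such as kinases and steroid hormone receptors from HSP70, the ring-shaped chaperonins CCT and HSP60 enclose their clients, and small heat shock proteins hold unfolded proteins without using ATP. Transcription of many of these genes is driven by heat shock factor 1, which binds heat shock elements made of alternating GAA and TTC units, and that of ER chaperones by ATF6 and partners at the ER stress element. In neurons, HSP70 and DNAJ proteins also strip clathrin from vesicles and keep the proteins of transmitter release folded.

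Promoter sequences are shown here for the members that carried a full element of either kind, because these elements are the textbook link between the genes that are compared below. A window of 250 bases before and 50 bases from the transcription start on was available in RefSeq (GRCm38.p6) for 71 of the 88 members. The windows were searched on both strands for 3 alternating heat shock units, GAANNTTCNNGAA or TTCNNGAANNTTC. These letters occurred in 198 of 32851 windows (0.603%). A gene can have several windows, and by gene they occurred in 179 of 27025 (0.662%) and in 4 of the 71 members (5.63%). The members were Hsph1, Dnajb6 and the neighbours Hspd1 and Hspe1, which are transcribed away from each other from 1 shared promoter. The capitals mark the element, and where matches overlap the capitals join them. The Hspe1 stretch lies at chr1:55088051-55088080 on the plus strand, 97 to 68 bases before the start of Hspe1. The Hsph1 stretch lies at chr5:149636280-149636308 on the minus strand, just inside the transcript, and the Dnajb6 stretch at chr5:29735844-29735872 on the plus strand, upstream of a start.
Hspe1 and Hspd1: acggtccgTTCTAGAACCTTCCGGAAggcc
Hsph1: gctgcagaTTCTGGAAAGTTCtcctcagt
Dnajb6: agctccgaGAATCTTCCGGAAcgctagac

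The ER stress element, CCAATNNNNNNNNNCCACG, occurred in 39 of the 32851 windows (0.119%) and in 37 of the 27025 genes with a window (0.137%). Of the 71 members 3 held it (4.23%), namely Hspa5, Hsp90b1 and Dnajc3. The Hspa5 stretch lies at chr2:34772017-34772046 and the Dnajc3 stretch at chr14:118937819-118937848, both on the plus strand before the start. The Hsp90b1 stretch, chr10:86705510-86705694 on the minus strand, is the part of the window before the annotated exons and holds the element once in each orientation.
Hspa5: cgacttcaCCAATCGGAGGCCTCCACGacg
Dnajc3: ccccacaaCCAATCAGCGCCAACCACGacc
Hsp90b1: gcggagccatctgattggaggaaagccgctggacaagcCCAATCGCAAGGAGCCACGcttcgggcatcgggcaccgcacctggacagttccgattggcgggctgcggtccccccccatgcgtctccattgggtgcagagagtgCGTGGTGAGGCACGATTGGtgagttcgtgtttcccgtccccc

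In old brains the changes of chaperone transcripts were small and mostly downward. Of the 88 members, 80 passed the filter on low counts. By the quasi-likelihood test of edgeR, 14 of these differed between the ages at a threshold of 0.05 on p after Benjamini-Hochberg adjustment over all 18492 genes tested (17.5%, against 11% of all genes). Transcripts of 12 members fell (15%, against 4.89% of all genes) and those of 2 members rose (2.5%, against 6.09%). The 12 that fell were the HSP110-type exchange factors Hsph1, Hspa4 and Hspa4l, the cytosolic HSP70 and HSP90 genes Hspa8, Hsp90aa1 and Hsp90ab1, the co-chaperones Dnaja1 and Bag1, the mitochondrial chaperonin gene Hspd1, the CCT subunits Cct3 and Cct7, and Hspa12a. The 2 that rose were Hspa2 and Bag5.

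No member reached the study's fold threshold, an absolute log2 fold change over 0.58, which 2.5% of all genes passed together with the adjusted p. The largest change among the 14 was -0.40, and the standard errors (SE) of the tested members lay between 0.032 and 0.34 with a median of 0.052. Every old mouse lay below every young mouse in 11 members (13.8%, against 6.08% of all genes tested) and above in 2 (2.5%, against 6.5%). Over the 80 tested members the median log2 fold change was -0.024, beside -9.2e-05 over all genes, with 46 members below 0 and 34 above. Reads that map to several places in the genome were not counted, which bears on members with pseudogenes or near-identical copies. The 8 members that were not tested, with at most 22 counts in any library, were Hspb7, Hspb9, Dnajb8, Dnajc5b, Dnajc5g, Dnajc22, Cct6b and Cct8l1.

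**Figure D1:**
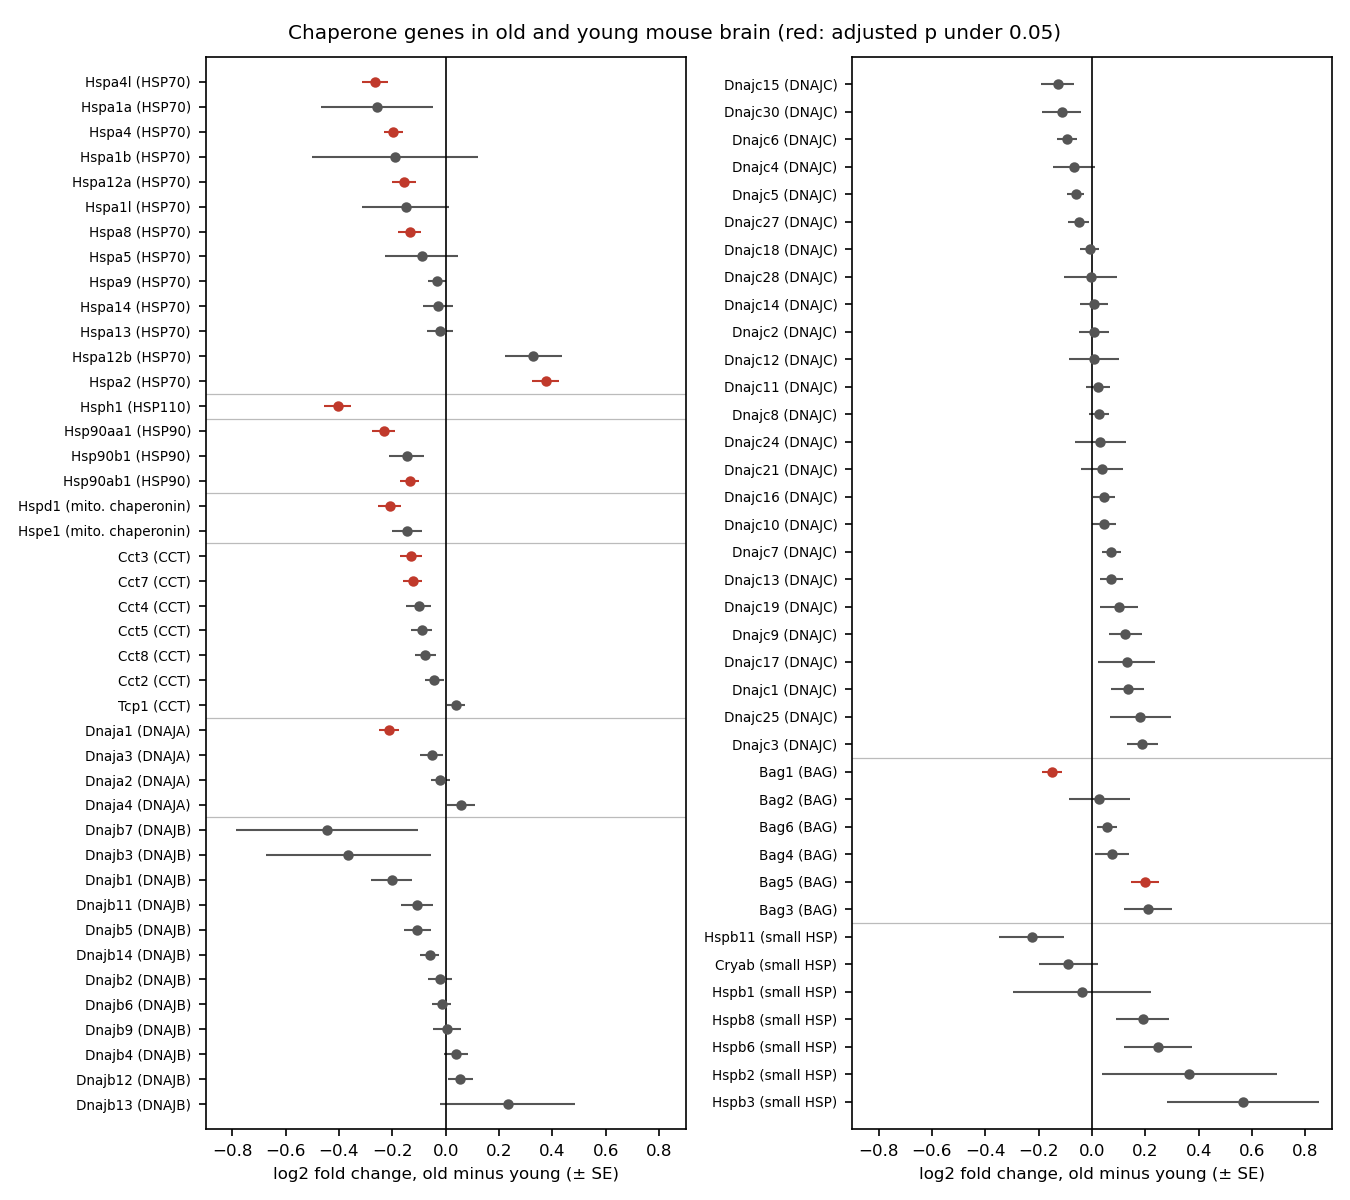
Log2 fold change (old minus young, x axis) with its SE for each of the 80 tested chaperone genes, grouped by family and ordered within each family, with genes of an adjusted p under 0.05 in red. Red points lie mostly left of 0 in the HSP70, HSP110, HSP90, mitochondrial chaperonin and CCT families, and the wide bars belong to genes with few counts such as Dnajb7 and Hspb3.

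Most of the members that fell were abundant. Of the 28 members with a mean of at least 100 CPM, 25 had a log2 fold change below 0 and 10 fell (35.7%). Among all 2336 genes of that level, 11.8% fell and 7.66% rose, so abundant genes were called more often in general. The share of these 2336 genes with a log2 fold change below 0 is not given here. Their precision is higher: Hsp90ab1, Hspa8 and Hsp90aa1 rested on 10443 to 30409 counts per library, whereas Hspa1a and Hspa1b rested on 111 to 304.

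**Figure D2:**
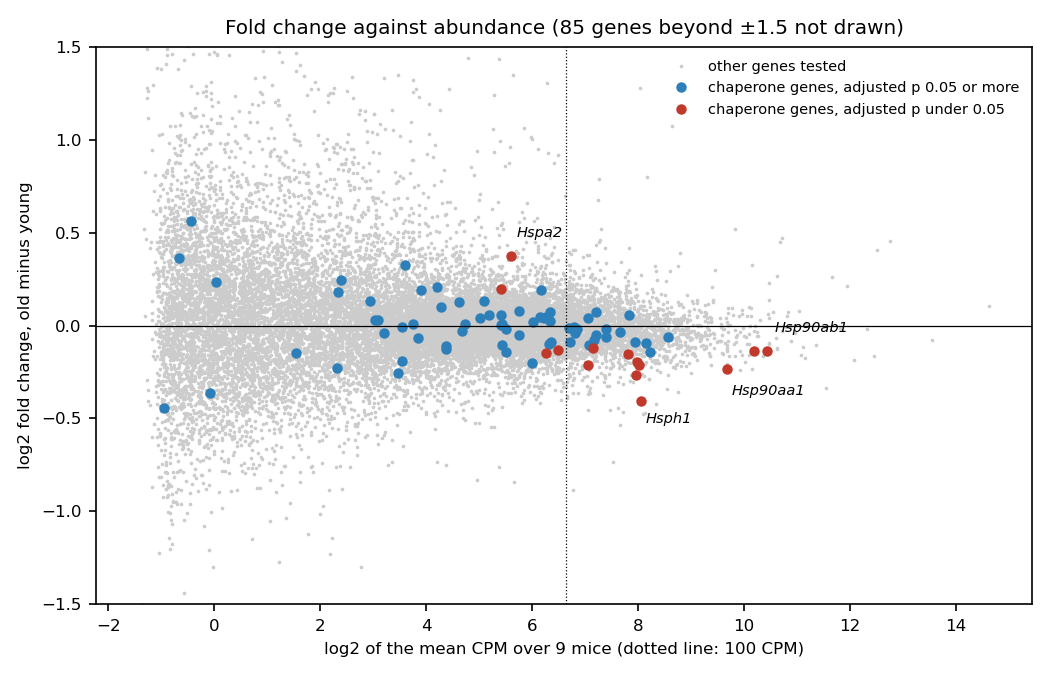
Log2 fold change (old minus young, y axis) against the log2 of the mean CPM over the 9 mice (x axis) for all genes tested (grey) and for the chaperone genes (blue, or red with an adjusted p under 0.05). To the right of the dotted line at 100 CPM, 25 of 28 chaperone genes lie below 0.

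How the libraries were scaled and which mice entered bore on these counts. With TPM as deposited, in which protein-coding genes took between 48.8 and 83.0% of a library's sum, limma on log2(TPM + 1) called 1 member, Hsph1, and 518 genes in all against 2031 from the counts. With TPM rescaled to the sum of protein-coding genes it called 10 members, 8 of them lower. Without old replicate 1, which had the lowest old value in Hsph1, Hspa4, Hspa4l, Hspa8, Hsp90aa1 and Hspd1, 7 members fell. The calls of Hspa8, Hsp90ab1, Hspa12a, Cct3 and Cct7 were lost then, with adjusted p between 0.0538 and 0.148. Without young replicate 4, 4 members rose, Dnajc3 and Hspa12b in addition, and without young replicate 1 or old replicate 5 only Hspa2 rose.

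The HSP110-type exchange factors of HSP70 fell together. All 3 of these genes, Hsph1, Hspa4 and Hspa4l, fell in the old brains, by 24.5, 12.7 and 16.7%. Their proteins speed up the release of ADP from HSP70 and, with J-domain proteins, help it to take apart aggregates. Summed over the 3 genes, the old mice held 76.4 to 85.6% of the young mean and the young mice 95 to 104%.

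Hsph1 (ENSMUSG00000029657, chr5:149614287-149636376 on the minus strand, GRCm38) encodes HSP105, a heat-inducible HSP110 protein, and carries the heat shock element shown above. Its level was 275, 280.5, 309, 323 and 298 CPM in the young mice and 207, 227, 239.7 and 224 CPM in the old mice. All old mice lay below all young mice, the lowest young value being 275 and the highest old value 239.7 CPM. The mean fell from 297 ± 19.8 CPM (SD, n = 5) to 224 ± 13.4 CPM (SD, n = 4), a log2 fold change of -0.40 ± 0.051 (SE) with an edgeR adjusted p of 0.00012. The call held in every alternative fit run, with log2 fold changes between -0.57 and -0.36.

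Hspa4 (ENSMUSG00000020361, chr11:53259814-53300457), which encodes the constitutive HSP110 protein APG-2, was measured at 272, 269.9, 263, 273 and 267 CPM in young and 224, 243, 240.5 and 232 CPM in old mice. The young mice lay close together and the ages did not overlap. Its change was -0.20 on the log2 scale in edgeR's test (SE 0.035, adjusted p = 0.00178).

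Hspa4l (ENSMUSG00000025757, chr3:40744495-40796103), which encodes the heat-inducible paralog APG-1, was measured at 264, 244, 286, 277 and 281 CPM in young and 208, 231, 236 and 226 CPM in old mice. The ages did not overlap here either, and the gap between the lowest young and the highest old mouse was smaller than in Hsph1. The fold change in edgeR's test was -0.26 on the log2 scale (SE 0.048, adjusted p = 0.00207). Per length, Hsph1 took 34.6, 35.7, 37.2, 37.9 and 36.3% of the TPM of the 3 genes in the young mice and 32.9, 32.9, 34.2 and 33.6% in the old mice, so that its share was lower in every old mouse. Set against Hspa8, the main HSP70 transcript, Hsph1 TPM stood at 14.2, 14.3, 15.1, 14.7 and 14.4% in young and 11.7, 12.4, 12.2 and 11.9% in old mice.

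**Figure D3:**
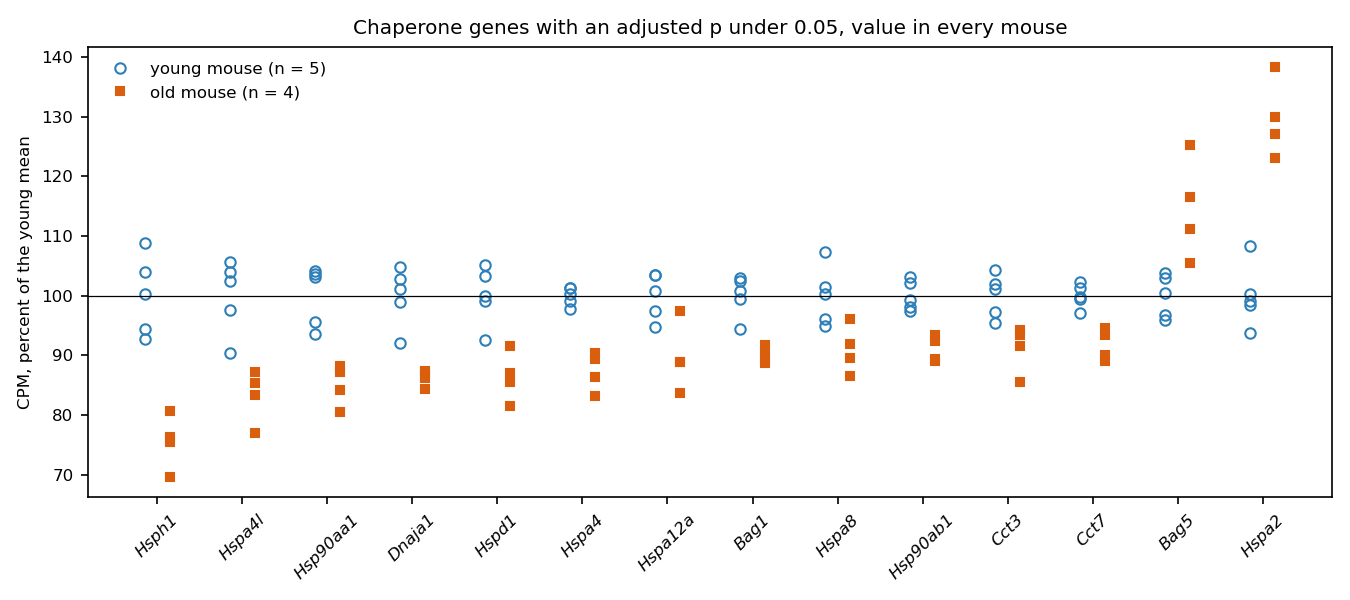
CPM of each of the 14 chaperone genes with an adjusted p under 0.05 in every mouse, as a percent of the gene's young mean (y axis), with young mice as blue circles (n = 5) and old mice as orange squares (n = 4). Hsph1 is lowest in the old mice and Hspa2 highest, and the ages overlap in Hspa12a and Hspa8.

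The BAG family, whose BAG domain also drives exchange on HSP70, moved in both directions. Of its 6 members, Bag1 fell, Bag5 rose and the other 4 did not pass the test, with a median log2 fold change of 0.066 (-0.095 with TPM as deposited, against -0.14 for all genes). Bag1, which links HSP70 to the proteasome, was measured at 75.9, 79.9, 81.02, 82.3 and 82.8 CPM in young and 71.8, 71.3, 72.8 and 73.8 CPM in old mice. All old mice lay below the lowest young mouse, young replicate 1. The change was -0.15 ± 0.038 on the log2 scale (edgeR, adjusted p = 0.0172), and p was 0.0537 without young replicate 5.

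Bag5, which has several BAG domains and is described as an inhibitor of HSP70 and of the ubiquitin ligase parkin, was measured at 38.8, 41.4, 40.3, 38.5 and 41.7 CPM in young and 46.8, 42.4, 44.6 and 50.3 CPM in old mice. The old mice lay above the young, though old replicate 3 only by a small margin over young replicate 5. Bag5 rose by 0.20 ± 0.053 on the log2 scale (edgeR, adjusted p = 0.0205), and the call was lost without old replicate 5 (adjusted p = 0.0835) and without young replicate 1 (adjusted p = 0.052). Bag3, the heat-inducible member that takes clients to autophagy, differed by 0.21 (edgeR, adjusted p = 0.154), with 15.3 to 20.5 CPM in young and 17.8 to 21.9 CPM in old mice. Bag2, Bag4 and Bag6 lay between 0.027 and 0.076 on the log2 scale.

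Within the HSP70 family itself, 4 members fell and 1 rose of 13, against 4.89 and 6.09% of all genes tested. The median log2 fold change was -0.14, or -0.066 without old replicate 1. Besides Hspa4 and Hspa4l, which are HSP70 members by symbol and exchange factors by function, the genes that fell were Hspa8 and Hspa12a. Hspa8, the constitutive HSP70 that uncoats clathrin vesicles, held 50.3, 52.1, 51.1, 50.96 and 51.7% of the family's TPM in young and 49.6, 50.02, 50.8 and 50.7% in old mice. It was measured at 1148, 1163, 1212, 1298 and 1226 CPM in young and 1046, 1084, 1163 and 1112 CPM in old mice, and old replicate 4 overlapped the young range. The change of -0.14 ± 0.043 on the log2 scale had an adjusted p of 0.04995 in edgeR's test, just under the threshold, and the call was lost in 7 of the 9 fits that left out 1 mouse (p up to 0.148).

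Hspa12a, a distant HSP70 relative that is abundant in neurons, was measured at 235, 221, 241, 242 and 228 CPM in young and 208, 228, 208 and 196 CPM in old mice. Old replicate 3 lay inside the young range and the other old mice below it. Its log2 fold change was -0.16 ± 0.044 (edgeR, adjusted p = 0.0283), and 6 of the 9 fits without 1 mouse lost the call, with p up to 0.103. An exon of Hspa12a overlaps Eno4 on the opposite strand, and since the sources do not state whether these libraries kept the strand, reads of both genes may not be separated. In all, 31 members have an exon overlapped in this way. Its paralog Hspa12b, expressed in endothelial cells, was measured at 9.15 to 13.7 CPM in young and 12.7 to 15.5 CPM in old mice and a log2 fold change of 0.33 ± 0.11 that did not pass (edgeR, adjusted p = 0.0602). Without young replicate 4, the highest young mouse, its p was 0.00766. Of 7 endothelial markers 4 rose (Pecam1, Flt1, Ly6c1 and Cdh5) and 2 lay below 0, Cldn5 at -0.14 and Itm2a at -0.43, which the DESeq2 Wald test called lower. The summed level of the 7 was 257 to 269.6 CPM in young and 289 to 315 CPM in old mice. Their part in the values of Hspa12b was not tested.

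Hspa2 had the larger rise of the 2 members called higher. The gene (ENSMUSG00000059970, chr12:76404176-76406938) encodes an HSP70 that was first described in testis and is also present in brain. The level was 42.7, 46.7, 42.4, 43.2 and 40.4 CPM in young and 59.5, 53.03, 54.8 and 56 CPM in old mice, without overlap. The change was 0.37 ± 0.05 on the log2 scale, a rise of 29.7% (edgeR, adjusted p = 0.000157), and the call held in all fits without 1 mouse. Per length it remained a minor HSP70, with 3.19, 3.57, 3.05, 2.89 and 2.91% of the family's TPM in young and 4.82, 4.18, 4.08 and 4.36% in old mice.

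The strictly stress-inducible HSP70 genes were low and varied between mice. Hspa1a was measured at 10.03, 7.52, 14.5, 11.4 and 16.1 CPM in young and 10.5, 8.04, 11.1 and 9.74 CPM in old mice, and Hspa1b at 8.26, 6.14, 16.2, 14.7 and 16.7 CPM in young and 11.8, 10.01, 11.5 and 9.69 CPM in old mice. The old mice lay inside the young range in both genes, and the young mice spread more than the old. Their log2 fold changes of -0.26 ± 0.21 and -0.19 ± 0.31 did not pass edgeR's test (adjusted p = 0.499 and 0.756). The proteins of these neighbouring genes are near-identical and reads that map to both were not counted, so the split between them is uncertain. Together they held 0.911 to 2.07% of the HSP70 TPM in young and 1.25 to 1.58% in old mice.

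The HSP70 proteins of the organelles did not pass the test. Hspa5, the ER chaperone BiP, was measured at 243, 202, 253, 333 and 234 CPM in young and 228, 224, 256 and 243 CPM in old mice, with young replicate 4 far above all other mice. Its log2 fold change was -0.09 ± 0.14 (edgeR, adjusted p = 0.74) and became 0.031 without that mouse. Hspa9, the mitochondrial mortalin, lay at 204 ± 3.005 CPM (SD, n = 5) in young and 199 ± 7.65 CPM (SD, n = 4) in old mice, a log2 fold change of -0.033 (adjusted p = 0.608). Hspa13 and Hspa14, with log2 fold changes of -0.02 and -0.028, were close to 0, and Hspa1l stood at -0.15 with a wide SE of 0.16.

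Both cytosolic HSP90 genes fell, the inducible one by more. Hsp90aa1 (ENSMUSG00000021270, chr12:110690605-110702728), the heat-inducible HSP90 alpha, was measured at 835, 818, 909.9, 905 and 901 CPM in young and 704, 736, 762 and 771 CPM in old mice. The ages did not overlap, and the change was -0.23 ± 0.042 on the log2 scale (edgeR, adjusted p = 0.00208). Hsp90ab1, the constitutive HSP90 beta and with 1963 TPM in young mice the most abundant member per length, was measured at 1411, 1402, 1484, 1469 and 1429 CPM in young and 1286, 1282, 1345 and 1330.2 CPM in old mice. The ages were separate but close, and the change was -0.13 ± 0.035 (edgeR, adjusted p = 0.0182). Its call was lost without old replicate 1 (adjusted p = 0.0538) and without old replicate 3 (adjusted p = 0.052).

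Hsp90aa1 made up 31.1, 30.8, 31.9, 31.99 and 32.5% of cytosolic HSP90 TPM in young and 29.5, 30.5, 30.2 and 30.7% in old mice, so that every old mouse lay below the lowest young mouse. Hsp90b1, the ER paralog GRP94 whose promoter is shown above, was measured at 298, 282, 317, 367 and 303 CPM in young and 272, 277, 301 and 284 CPM in old mice. Young replicate 4 was again the highest and the ages overlapped. Its log2 fold change of -0.15 ± 0.066 did not pass (edgeR, adjusted p = 0.186), and it passed when the replicate number was added as a block (adjusted p = 0.0157), although the numbers were not found to pair the mice.

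Few of the J-domain genes were called. Of 41 tested DNAJ genes 1 fell in edgeR's test, by which 4.89% of all genes fell and 6.09% rose. An unadjusted p under 0.05 was seen in 5 of the 41, and the DESeq2 Wald test called 1 further gene, Dnajc3, as higher (adjusted p = 0.0451). The median log2 fold changes were -0.036 for DNAJA, -0.04 for DNAJB and 0.026 for DNAJC, the last of which turned to -0.14 with TPM as deposited, where the median of all genes was -0.14 too. The gene that fell was Dnaja1, the heat-inducible DNAJA partner of Hspa8, which was measured at 271, 253, 287, 282 and 277 CPM in young and 231, 239, 236 and 239.5 CPM in old mice. The old mice lay close together and all below the lowest young mouse. The change was -0.21 ± 0.039 on the log2 scale (edgeR, adjusted p = 0.00222) and was called in every fit without 1 mouse. Exons of Smu1 and Gm6297 overlap it on the opposite strand.

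Dnajb1 (HSP40), the best-known heat-inducible J-domain gene, was measured at 59.4, 60.2, 76.7, 65.3 and 75.5 CPM in young and 59.9, 56.2, 61.01 and 56.5 CPM in old mice. The old mice lay near or below young replicates 1 and 2 and below the other 3 young mice. Its log2 fold change of -0.20 ± 0.077 did not pass (edgeR, adjusted p = 0.114), although it was close to that of Dnaja1. Dnajb6, a strong suppressor of amyloid and polyglutamine aggregation, stood at -0.015 ± 0.035 (adjusted p = 0.83), with 102 to 108 CPM in young and 102 to 104 CPM in old mice. Hsph1, whose window like that of Dnajb6 holds 3 heat shock units, though in another sequence and inside the transcript, stood at -0.40. Dnajb2, a neuronal J-domain protein with ubiquitin-binding motifs, had -0.021 ± 0.044 (adjusted p = 0.812).

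The J-domain genes of synaptic and clathrin vesicles did not pass the test. Dnajc5, the cysteine string protein of synaptic vesicles, was measured at 389, 387, 387, 378 and 376 CPM in young and 373, 366, 361 and 369.7 CPM in old mice. All old mice lay below all young mice, but the change was -0.061 ± 0.032 on the log2 scale and did not pass (edgeR, adjusted p = 0.245). Dnajc6, the clathrin uncoating factor auxilin, was measured at 301, 299, 283, 295 and 285 CPM in young and 275, 290.1, 262 and 269 CPM in old mice, where old replicate 3 overlapped the young range. It stood at -0.094 ± 0.038 (adjusted p = 0.119). Dnajc13, which acts on endosomes, stood at 0.073 ± 0.042 (edgeR, adjusted p = 0.298), with 75.8 to 83.3 CPM in young and 78.3 to 85.9 CPM in old mice. Of the 5 members that serve vesicles (Hspa8, Dnajc5, Dnajc6, Dnajc13 and Hspa12a), 2 fell and the median log2 fold change was -0.094. Of 8 neuron markers 5 lay below 0 and 3 above, with a median of -0.021 and 2 at an unadjusted p under 0.05. Stmn2 fell (-0.27). The sum of the 8 was 95.3 to 104% of the young mean in old and 95.7 to 104% in young mice. Their part in the values of the vesicle members was not tested.

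The chaperones of the ER showed no called change. Of the 9, edgeR's test passed 0, with 3 at an unadjusted p under 0.05, and the DESeq2 Wald test called Dnajc3 alone. The median log2 fold change was 0.0054 from the counts and -0.16 with TPM as deposited. Dnajc3, an inhibitor of the kinase PERK, came nearest to a rise, with 66.2, 60.7, 68.2, 76.2 and 64.5 CPM in young and 70.3, 77.9, 80.4 and 78.1 CPM in old mice. Only old replicate 1 lay within the young range, which young replicate 4 extended upward. Its log2 fold change was 0.19 ± 0.059 with an adjusted p of 0.05016, which was 0.00533 without young replicate 4. The 3 members that carry the ER stress element shown above thus had log2 fold changes of -0.09, -0.15 and 0.19. Dnajb9, another ER J-domain gene, lay at 0.0054 (adjusted p = 0.963). The 14 ER folding enzymes outside the members also gave 0 calls, with 0 by the DESeq2 Wald test, 4 at an unadjusted p under 0.05 and a median of -0.065, and their sum was highest in young replicate 4 (114.5% of the young mean).

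In mitochondria the chaperonin fell and the rest of the members did not pass. Hspd1 (ENSMUSG00000025980, chr1:55077835-55088243 on the minus strand) encodes the barrel HSP60 and was measured at 139.6, 130.4, 148, 141 and 146 CPM in young and 115, 121, 123 and 129 CPM in old mice. All old mice lay below all young mice, though old replicate 5 came close to young replicate 2. The change was -0.21 ± 0.044 on the log2 scale (edgeR, adjusted p = 0.00505). Hspe1, the lid HSP10 that shares its promoter with Hspd1, was measured at 44.1, 45.2, 48.2, 52.8 and 46.1 CPM in young and 40.7, 44.6, 44.3 and 41.7 CPM in old mice, where 2 old mice overlapped the young range. It changed in the same direction by -0.14 ± 0.056 and did not pass (edgeR, adjusted p = 0.108). Exons of the pair overlap on opposite strands, so each may hold reads of the other.

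Over the 10 mitochondrial members 1 fell and the median was -0.06. Of 12 mitochondrial partners outside the members 1 passed, Trap1, a mitochondrial HSP90 paralog, at -0.13 ± 0.038 (edgeR, adjusted p = 0.043), with a list median of -0.0096. Fold changes of the other 8 mitochondrial members, Hspa9, Dnaja3, Dnajc4, Dnajc11, Dnajc15, Dnajc19, Dnajc28 and Dnajc30, lay between -0.13 and 0.10.

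Of the subunits of the cytosolic chaperonin CCT, which folds actin and tubulin, Cct3 and Cct7 fell. Among the 7 tested members 6 had a log2 fold change below 0, and the median was -0.089. Cct3 was measured at 94.3, 90.7, 95.1, 89.03 and 97.4 CPM in young and 87.97, 79.8, 87.2 and 85.4 CPM in old mice and Cct7 at 143, 151, 147, 147 and 149 CPM in young and 131, 133, 139.5 and 138 CPM in old mice. In both genes the ages were separate by a narrow margin. Their log2 fold changes were -0.13 ± 0.041 and -0.12 ± 0.035 (edgeR, adjusted p = 0.04999 and 0.0291).

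The call of Cct3 was lost in 8 and that of Cct7 in 5 of the 9 fits without 1 mouse, and both were lost with the replicate number as a block. Cct2, Cct4, Cct5 and Cct8 lay between -0.10 and -0.043. Tcp1, the alpha subunit, was the exception at 0.038 ± 0.034 (adjusted p = 0.518), and its exons overlap Mrpl18 and Acat3 on the opposite strand. Cct6a, the remaining constitutive subunit, is annotated as a processed transcript and so fell outside the rule. It was measured at 111, 109.8, 112, 113 and 115 CPM in young and 99.4, 103, 112 and 103 CPM in old mice, with a log2 fold change of -0.10 ± 0.039 (edgeR, adjusted p = 0.096). Prefoldin and other cofactors that feed CCT did not share a direction: of 13 tested, Pfdn5 rose by 0.15 and Pdcl fell by 0.23 on the log2 scale, with a median of -0.0093.

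The median log2 fold change of the small heat shock proteins was 0.19, but 0.041 without young replicate 2, 0.066 without old replicate 4 and 0.015 with TPM as deposited. None of their 7 tested members passed edgeR's test, either at an adjusted p or at an unadjusted p under 0.05, or in the DESeq2 Wald test. Cryab, the alpha B-crystallin of glia and by TPM the main member, was measured at 82.5, 70.9, 88.8, 87.96 and 88.95 CPM in young and 62.8, 79.6, 91.4 and 81.4 CPM in old mice. The old mice spanned more than the whole young range, from the lowest to the highest value of all mice. Its log2 fold change was -0.089 ± 0.11 (edgeR, adjusted p = 0.672). Cryab overlaps Hspb2 on the opposite strand.

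Hspb1 (HSP25), at 7.003, 6.80, 11.2, 12.03 and 9.82 CPM in young and 6.59, 6.63, 12.4 and 10.6 CPM in old mice, varied widely within each age, and its log2 fold change of -0.038 ± 0.26 was within that spread (adjusted p = 0.949). Hspb6 and Hspb8 stood at 0.25 ± 0.13 and 0.19 ± 0.099 (edgeR, adjusted p = 0.238 and 0.241). The members at the extremes had few counts, Hspb3 at 0.56 ± 0.28 with 7 to 18 and Hspb2 at 0.36 ± 0.33 with 7 to 20 per library, and Hspb11 at -0.23 ± 0.12 with 72 to 105. Hspb8, the partner of Bag3 in chaperone-assisted autophagy, had its highest value of 19.4 CPM in old replicate 4, which also had the highest Bag3 level of 21.9 CPM.

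Many of the members that fell belong to the heat-inducible ones, a list of 16 genes taken from general knowledge of the response. Of these 16, 7 fell (Hsph1, Hspa4l, Hsp90aa1, Dnaja1, Hspd1, Hsp90ab1 and Hspa8), against 4.89% of all genes tested. In all, 13 of the 16 lay below 0, with a median of -0.17. Hspa8 and Hsp90ab1 are also abundant without stress, and without these 2, a choice made after seeing the data, 5 of 14 fell, 11 lay below 0 and the median was -0.20. In sum they stood at 84.7 to 91.97% of the young mean in old and 94.8 to 104% in young mice, or 80.7 to 88.7% in old and 92.3 to 105% in young mice without Hspa8 and Hsp90ab1. The low-abundance inducible genes Hspa1a, Hspa1b, Hspb1, Hspb8 and Bag3 did not pass, with SEs between 0.090 and 0.31. Dnajb1, Hspe1 and Cryab, described above, and Dnajb4 did not pass either. Dnajb4 was measured with a smaller SE and stood at 0.039 ± 0.044 on the log2 scale (edgeR, adjusted p = 0.63). The list was made with results of these data known and gets no test of its own.

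Genes that carry the heat shock element in their window were called in both directions. Of all 74 tested genes with 3 units, members included, 3 fell and 6 rose, with a median log2 fold change of -0.027. Over all 18492 genes tested, 905 fell (4.89%) and 1126 rose (6.09%). Of the 9 called-lower members with a window, 2 held the element (Hspd1 and Hsph1), and the called-lower members Hspa8, Hsp90aa1 and Hsp90ab1 had no window. Of the 4 members with the element, Hsph1 and Hspd1 fell, and Hspe1 (-0.14) and Dnajb6 (-0.015) did not pass. The looser motif of 2 units, GAANNTTC or TTCNNGAA, occurred in 15.1% of all windows. By gene, it occurred in 17% of the 27025 genes with a window and in 20 of the 71 members (28.2%).

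No change was called in the transcripts of the activators of the heat shock response. The activity of their proteins is not measured by RNA-seq. Hsf1, the main activator, stood at 0.037 ± 0.046 (edgeR, adjusted p = 0.659) and Hsf2 at -0.028 ± 0.061 (0.818). Of 6 tested genes of heat shock factors and of proteins named for binding them, 1 fell. It was Hsbp1l1, a relative of the HSF1-binding protein and not itself a heat shock factor. Its level went from 1.84 ± 0.264 CPM (SD, n = 5) to 1.05 ± 0.131 CPM (SD, n = 4), a log2 fold change of -0.80 (edgeR, adjusted p = 0.0159).

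Co-chaperones outside the members fell together with HSP90 in part. Of 27 tested, 4 fell and 2 rose, against 4.89 and 6.09% of all genes tested. Of the 27, 22 lay below 0 and the median was -0.055. Stip1 (HOP), which bridges HSP70 and HSP90, fell from 215 ± 12.9 CPM (SD, n = 5) to 183 ± 11.5 CPM (SD, n = 4), a log2 fold change of -0.23 ± 0.049 (edgeR, adjusted p = 0.00649). Ahsa1 (AHA1), the activator of the HSP90 ATPase, changed by -0.23 ± 0.04 (adjusted p = 0.00137), and the immunophilin Fkbp4 (FKBP52) by -0.24 ± 0.055 (0.0108).

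The co-chaperones that rose were Cdc37l1, at 0.18 ± 0.046 (edgeR, adjusted p = 0.0194), and Fkbp5 (FKBP51). Fkbp5, which opposes Fkbp4 on the glucocorticoid receptor complex and is itself induced by glucocorticoids, was measured at 29.2, 33.5, 29.4, 39.3 and 33.1 CPM in young and 62.5, 52.6, 69.5 and 54.6 CPM in old mice. Its change of 0.86 ± 0.1 on the log2 scale was larger than that of any member with a called change (edgeR, adjusted p = 0.000779). Stub1 (CHIP), the ubiquitin ligase that acts on HSP70 clients, stood at -0.047 ± 0.051 (adjusted p = 0.617).

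Gene groups that report on the state of the animal also differed between the ages. Of 8 glucocorticoid-induced genes 5 rose (Fkbp5, Sgk1, Zbtb16, Nfkbia and Cdkn1a), and their sum was 122 to 154% of the young mean in old and 89.1 to 112% in young mice. Of 3 cold-inducible RNA-binding genes 2 rose (Rbm3 by 0.53 and Srsf5 by 0.24), and their sum was 116 to 137% against 89.5 to 111%. Of 11 immediate early genes of neuronal activity 6 fell (Fos, Egr1, Egr2, Arc, Ier2 and Dusp1), and of 13 clock genes 8 rose (Per2, Per3, Cry1, Cry2, Nr1d1, Nr1d2, Dbp and Tef) and 1 fell (Arntl).

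In every one of these 4 lists, and in the summed HSP110-type factors, the heat-inducible members and the mitochondrial members, no old mouse overlapped a young mouse. The sums of the vesicle members, the endothelial markers and the red blood cell genes were separate as well. Of single genes tested, every old mouse lay below every young mouse in 6.08% and above in 6.5%. Old replicate 1, the lowest in summed heat-inducible members at 84.7% of the young mean, was the highest in cold-inducible genes at 137% and in clock genes at 117.5%. It lay inside the range of the old mice in immediate early genes (81% of 71.3 to 83.8%) and in glucocorticoid-induced genes (139% of 122 to 154%). The part of these 4 lists in the chaperone values was not tested. The hour of tissue collection and the body temperature of the mice are not given in the sources used here.

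**Figure D4:**
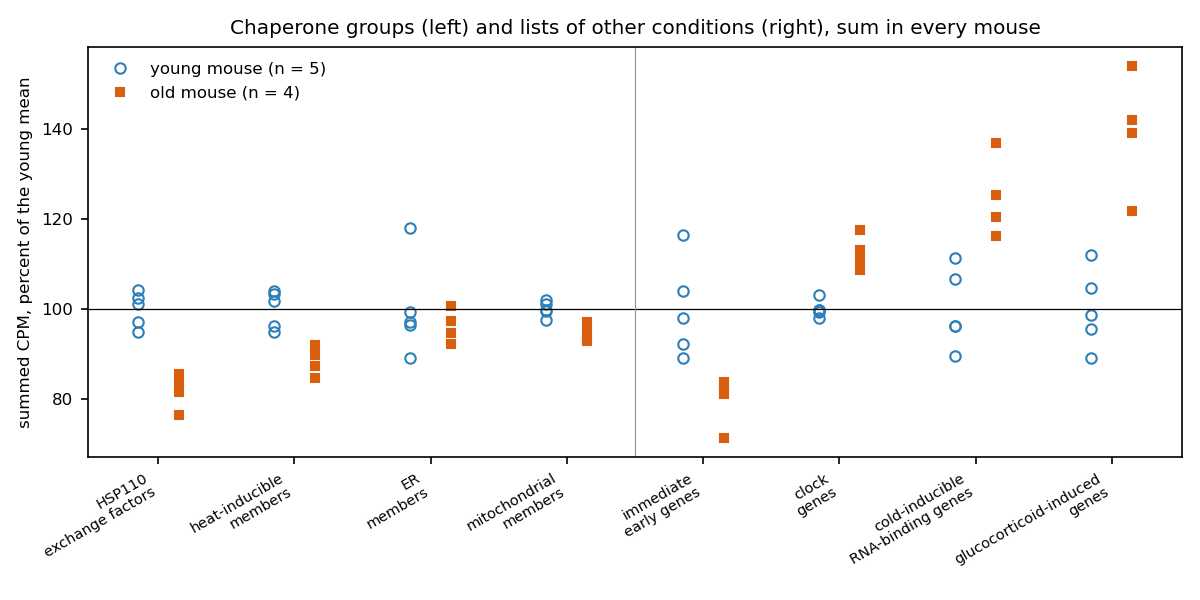
Summed CPM of 4 chaperone groups (left of the line) and of 4 lists of other genes (right) in every mouse, as a percent of the young mean (y axis), with young mice as circles (n = 5) and old mice as squares (n = 4). The ages overlap in the ER members and are separate in the other groups drawn.

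Markers of blood and of some cell types moved with age as well. The 5 red blood cell genes summed to 129 to 414% of the young mean in old and 87.1 to 117% in young mice and 3 rose. Of 7 microglia markers 1 rose in edgeR's test (Tmem119) and 3 in the DESeq2 Wald test. All 7 lay above 0, with 5 at an unadjusted p under 0.05 and a median log2 fold change of 0.44. Their sum was 131 to 141% in old and 87.6 to 137% in young mice, where the upper end is young replicate 4. Of 7 astrocyte markers 0 passed edgeR's test, with 2 at an unadjusted p under 0.05 and 2 in the DESeq2 Wald test. Of 7 oligodendrocyte markers 2 rose (Mbp and Mobp) and 1 fell (Mog), with 100.4 to 124% in old and 92.03 to 108% in young mice. Mural (1 of 8 higher), ependymal (1 of 7 lower) and choroid plexus markers (1 of 6 lower) had 1 call each, and skeletal muscle genes reached 30.5 CPM in sum in 1 old mouse. Old replicate 4 had the most red blood cell RNA, at 414% of the young mean. The part of all these markers in the chaperone values was not tested.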

How the data were processed

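The authors trimmed the reads with Trimmomatic, aligned them to GRCm38 with STAR and used featureCounts to count exonic reads with a unique position. These counts were deposited per gene, not normalized. The deposited TPM values were divided by gene length and scaled per library by the authors, with lengths not given in the sources used here. They include non-coding genes, so TPM in the text was rescaled to the sum of protein-coding genes, an alternative chosen after seeing the data. Each of the deposited tables had 1 further column of per-sample values that matched no listed sample and was not used. A deposited table of normalized counts was not used.

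Low genes were removed by filterByExpr with a minimum count of 10 and a minimum total count of 15. The minimum count need not hold in every library, and the tested member Dnajb7 had as few as 3 counts in a library. The genes kept were scaled by TMM and tested with the quasi-likelihood test (adjusted p under 0.05). SEs were derived from the fold change and its F value. The tools were edgeR 4.0.16, DESeq2 1.42.0 and limma 3.58.1 in R 4.3.3. The test was checked on simulated counts. The common biological coefficient of variation was 6.71%. Any 2 mice of 1 age differed by more than sampling noise (chi-square divided by its degrees of freedom 4.04 or more in young, 4.74 or more in old mice). Families follow the symbol. Symbols, positions and gene types came from GENCODE M21, where 259 of the gene IDs had no symbol. Members, lists and the genes named whatever they showed were chosen with earlier results of these data known, and every member with an adjusted p under 0.05 was named. Some genes of the lists outside the members are not reported here. Alternatives were DESeq2, other size factors, no filter, limma on log2(TPM + 1) and log2(TPM + 0.1), the replicate number as a block, and leaving out each mouse. For each same-numbered pair, deviations from the group means correlated at 0.17, -0.12, 0.088 and -0.024, so the numbers were not taken to pair the mice.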

Additional observations from a re-analysis of the deposited data

Results flagged for a closer look

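In the 4 old mice, 1 value of 2 quantities lay far from a tight cluster of the others. The log2 CPM of Dnajb6 was 6.69 in old replicate 1 and 6.71 in the other 3 old mice, so the gap took 0.923 of the whole range of the old mice, a range smaller than that of the young mice. The mean log2 CPM of the mitochondrial chaperonin pair, Hspd1 and Hspe1, was 6.11 in old replicate 1 and 6.21 in the others, a gap of 0.942 of the range. Of 88 such checks, 2 stood out, and chance gives about 1 in 20.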

How the results depend on the processing

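The number of members with an adjusted p under 0.05 was 14 with DESeq2's size factors, 15 with the DESeq2 Wald test, 13 with upper quartile scaling, 19 without the filter on low counts, 10 with TPM rescaled to protein-coding genes and 10 to 14 without 1 mouse. No alternative gave a member past the fold threshold. With TPM as deposited, at a pseudocount of 1 and of 0.1 alike, it was 1 member, lower in old, and 0 higher. The median of all genes moved to -0.14 and -0.16 there, and the family medians moved to -0.23 and -0.27 (HSP70), -0.56 and -0.57 (HSP110), -0.30 and -0.30 (HSP90), 0.015 and 0.016 (small heat shock proteins), -0.34 and -0.34 (mitochondrial chaperonin), -0.20 and -0.20 (DNAJA), -0.20 and -0.21 (DNAJB), -0.14 and -0.14 (DNAJC), -0.095 and -0.097 (BAG) and -0.25 and -0.25 (CCT). Relative to all genes these were -0.093, -0.42, -0.16, 0.16, -0.20, -0.056, -0.059, 0.0049, 0.047 and -0.11 at a pseudocount of 1. Without 1 mouse, 7 to 11 members fell and 1 to 4 rose, and 4 rose without the filter. The median of the small heat shock proteins ranged from 0.041 to 0.24 that of BAG from 0.040 to 0.11, HSP70 from -0.16 to -0.066, DNAJA from -0.053 to -0.020, DNAJB from -0.060 to -0.0068 and DNAJC from 0.022 to 0.047 without 1 mouse.

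With the replicate number as a block, 14 members passed, 11 lower and 3 higher. In edgeR's test, Cct3 (adjusted p = 0.0729) and Cct7 (adjusted p = 0.0757) were lost, Hsp90b1 (adjusted p = 0.0157) and Hspa12b (adjusted p = 0.0295) were gained, and no other named member's call changed.

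Directions that turned belonged to members without a call. Dnajb9 turned to -0.0049 without the filter, to -0.157 and -0.16 with TPM as deposited, and ranged from -0.038 to 0.032 without 1 mouse, below 0 without young replicate 1 or old replicate 5. Tcp1 turned to -0.12 and -0.13 with TPM as deposited. Without 1 mouse, Cryab ranged from -0.17 to 0.011 (above 0 without old replicate 1), Dnajb2 from -0.051 to 0.0055 (old replicates 1 and 5), Hspa5 from -0.16 to 0.031 (young replicate 4) and Hspb1 from -0.23 to 0.099 (young replicates 3 and 4, old replicates 1 and 3). The cause of these moves was not tested. Counts of 94 to 304 per library limit the precision for Hspa1a, Hspa1b and Hspb1.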
